A study of Mus musculus with 5 samples.

Results

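Genes that carry iron into, through and out of the cell, or store it and sense it, were followed on 5 arrays of mouse mammary epithelial cells. The set has 10 genes: Tfrc, Trf, Steap3, Slc11a2, Slc25a37, Slc25a28, Fth1, Slc40a1, Aco1 and Ireb2. A gene was taken as measured where a probe set named that gene alone, and the probe set with the highest mean over the 5 arrays stood for it. That gave 9 of the 10 genes, out of 22180 genes measured in all. The probe set that lists Trf also lists Srprb, so Trf, which encodes the transferrin that carries iron in serum and in mouse milk, has no value here. The set was chosen because Slc25a37 read higher on both knockout arrays. Its difference between the genotypes is therefore given as a description, without a test.

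The study asked how gene expression in the epithelium changes when Mmp14, a membrane-anchored matrix metalloproteinase, is removed there. The knockout group has 2 arrays of MMTV-Cre+/Mmp14(f/f) mice. The wild-type group has 3 arrays of Mmp14(f/f) littermates, which carry the same floxed alleles without Cre. All were 4 weeks old and on a congenic FVB/NJ background, and no other allele or agent is named. The MMTV promoter drives Cre in mammary epithelium, so deletion is limited to cells in which that promoter has been active. Inguinal glands without the lymph node were digested with collagenase and spun to remove stroma, and 10 ng of RNA was labelled per array. The labels call the arrays biological replicates and do not say whether 1 mouse or a pool stood behind each, and a p-value therefore speaks only of the variation among these samples. Values are log2 signals, on which a difference of 1 is a doubling. A mean ± SD is over 2 knockout or 3 wild-type arrays, and a difference is knockout minus wild type with limma's moderated SE.

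Iron circulates bound to transferrin, and a cell takes the complex up through the transferrin receptor. In the endosome a STEAP reductase converts the iron to its ferrous form, and a divalent metal transporter moves it to the cytosol. From there it enters mitochondria through the mitoferrins for heme and iron-sulphur cluster synthesis, is stored inside ferritin, or leaves through ferroportin. A pair of RNA-binding iron regulatory proteins adjusts several of these steps after transcription, by holding back translation of ferritin and ferroportin and stabilising the transferrin receptor message when iron is scarce. The mammary gland uses the same machinery and also exports iron into milk.

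Several facts of the whole data set bear on what follows. Mmp14 itself read 7.98 and 7.28 on the knockout arrays and 8.15, 8.67 and 7.75 on the wild-type arrays, so the groups overlapped (difference -0.56 ± 0.39, SE; limma adjusted p = 0.919). The epithelial markers Krt8 (11.34 to 11.48), Epcam (9.98 to 10.10) and Krt14 (8.96 to 9.29) gave signals on all 5 arrays. Markers of stromal cells did so too. The mean signal per array was 7.83 to 8.51 for 10 fibroblast markers and 6.17 to 6.85 for 11 endothelial markers. For 15 luminal markers it was 8.11 to 8.43. The array numbers in the labels form 2 runs of consecutive numbers, called runs here. Run 1 has knockout 1 with the first 2 wild-type replicates, and run 2 has knockout 2 with wild type 3. The labels do not say what a run stands for. Mmp14 was lower in the knockout within each run, with a difference of -0.43 in run 1 and -0.46 in run 2. Knockout 2 stood apart on the first principal component, which held 45.0% of the variance, with a score of 25.3 against -12.5 to 4.63 on the other arrays. Many genes have values that are equal on several arrays to 6 decimals, and only 31.2% of genes have 5 different values. Among the iron genes these are Slc25a37 and Fth1, and the other 7 have ties, which narrow the estimated spread.

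None of the 8 measured iron genes other than Slc25a37 passed limma's test between the genotypes. Over all 22180 genes limma called 0 at an adjusted p under 0.05, which is 0.00% of the genes tested, and 288 (1.30%) had an unadjusted p under 0.05. Of the 8 iron genes 0 reached even that unadjusted threshold. Their differences lay between -0.18 and 0.05, and the 95% intervals of these differences, from limma's fit, lay within -0.57 and 0.26. The median difference was -0.06 for the 8 genes, -0.04 for the 9 with Slc25a37 and 0.00 for all genes. In bulk samples such as these, fewer cells of a type and less RNA per cell cannot be told apart.

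**Figure D1:**
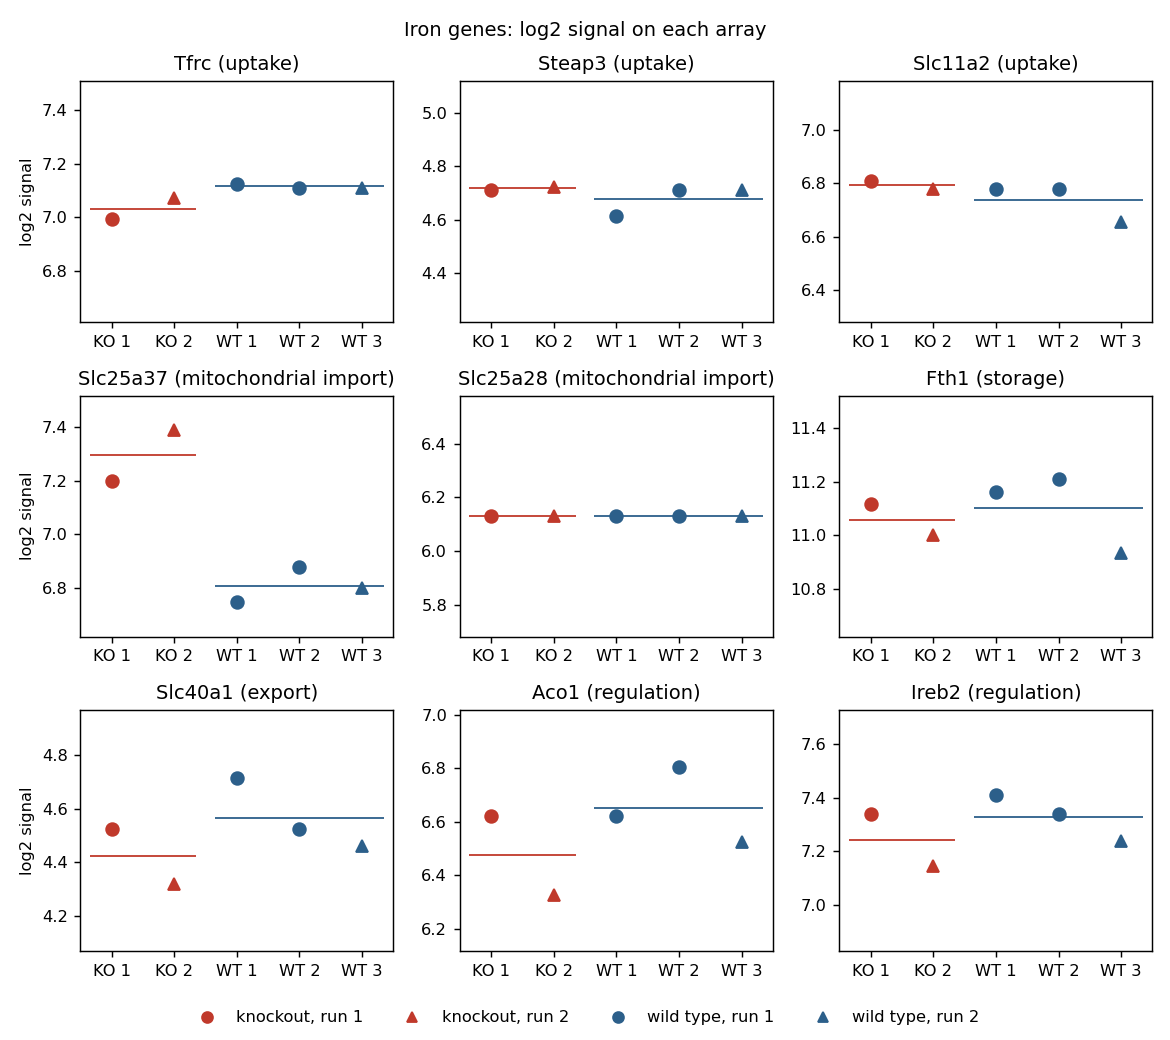
Log2 signal of each measured iron gene on each array (horizontal axis: knockout arrays KO 1 and KO 2, wild-type arrays WT 1 to WT 3); lines are group means, circles are run 1 and triangles run 2, and every panel spans the same number of log2 units. Slc25a37 is the gene with both knockout arrays above all wild-type arrays, Slc25a28 reads 6.13 on every array, and Fth1, Slc40a1, Aco1 and Ireb2 have their lowest values on the run 2 arrays.

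Uptake genes read nearly alike in the 2 genotypes. Tfrc, the transferrin receptor, read 6.99 and 7.07 on the knockout arrays and 7.12, 7.11 and 7.11 on the wild-type arrays. Both knockout arrays thus lay below all wild-type arrays, by a small amount, and it was the 1 iron gene that did so. Over all genes 2.80% lay below on both knockout arrays. The Tfrc difference was -0.08 ± 0.03 (SE), a fold of 0.944 (limma adjusted p = 0.919). It was -0.13 within run 1 and -0.04 within run 2. The wild-type values of replicates 2 and 3 were tied.

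Steap3, the endosomal ferrireductase, read 4.71 and 4.72 on the knockout arrays and 4.61, 4.71 and 4.71 on the wild-type arrays. The single low value was that of wild type 1, and 3 of the 5 arrays shared 1 value. The difference was 0.04 ± 0.04 (SE; limma adjusted p = 0.919). Slc11a2, the divalent metal transporter of the endosome and of the gut surface, read 6.81 and 6.78 in the knockout and 6.78, 6.78 and 6.66 in the wild type. Here wild type 3 was the low array, and the groups overlapped. The difference was 0.05 ± 0.05 (SE; limma adjusted p = 0.919).

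The mitoferrins are carriers of the inner mitochondrial membrane that import iron, and only the probe set of Slc25a37 varied between arrays. Slc25a37, the form best known from red cell precursors, read 7.20 and 7.39 on the knockout arrays and 6.75, 6.88 and 6.80 on the wild-type arrays. The lowest knockout value thus lay above the highest wild-type value, which is the property for which it was chosen, and 2.63% of all genes, or 5.37% of those with 5 different values, had it. The group means were 7.29 ± 0.14 and 6.81 ± 0.07 (SD), a difference of 0.49 ± 0.08 (SE), or 1.40-fold. The difference was 0.39 within run 1 and 0.59 within run 2, and 0.39 without knockout 2 and 0.58 without knockout 1. In size it ranked 137 among the 22180 genes (0.618% were at least as large), and 42 genes were higher in the knockout by at least as much, itself included. Slc25a28, the widely expressed mitoferrin, read 6.13 on all 5 arrays, equal to 6 decimals, so this probe set carries no information on a difference.

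Among the 47 other measured members of the mitochondrial carrier family, 16 had a higher and 26 a lower mean in the knockout, 5 differed by no more than 0.001 in either direction, and limma called 0. Their differences ran from -0.29 to 0.21, with a median of -0.01. Slc25a37 lay outside that range, as a gene picked for its difference may. The carriers whose groups did not overlap were Slc25a3, the phosphate carrier, at -0.04 ± 0.02 (SE), and Ucp3, an uncoupling protein, at 0.03 ± 0.01, each with 1 value shared by all 3 wild-type arrays. Over all genes 2.80% lay below and 2.63% above on both knockout arrays. Ucp3, with a mean of 3.11, lay under the 40th percentile of all genes, at 3.86.

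**Figure D2:**
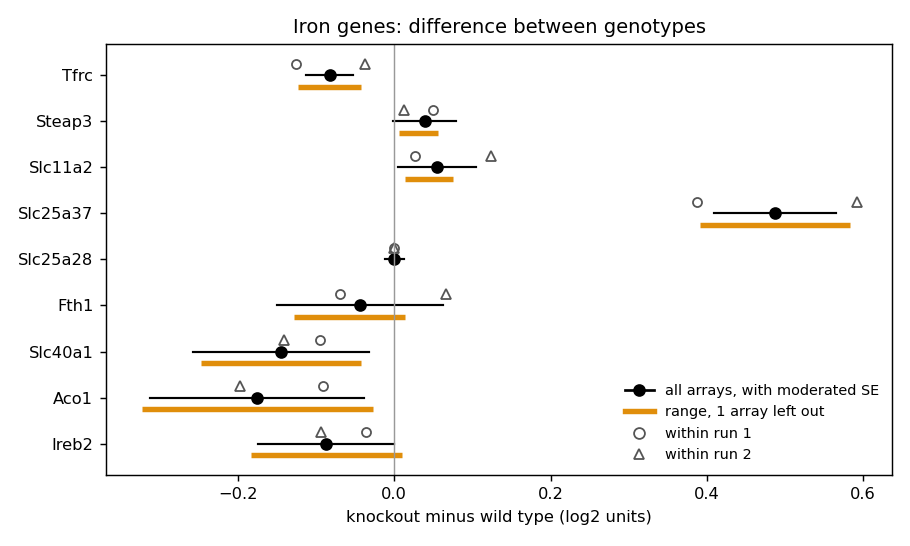
Difference between the genotypes for each measured iron gene (horizontal axis: knockout minus wild type, log2 units); black points with bars are limma's estimate with its moderated SE, orange bars the range when 1 array is left out, and open symbols the values within each run. Slc25a37 stands at 0.49, with within-run values of 0.39 and 0.59; the other 8 genes lie between -0.18 and 0.05, and the orange bars of Fth1 and Ireb2 cross 0.

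Storage and export genes read lowest on the arrays of run 2, of either genotype. Fth1, the heavy chain of ferritin with the ferroxidase centre, read 11.12 and 11.00 on the knockout arrays and 11.16, 11.21 and 10.93 on the wild-type arrays. The lowest array was wild type 3 and the next was knockout 2, both of run 2. The difference between genotypes was -0.04 ± 0.11 (SE; limma adjusted p = 0.966), with a 95% interval from -0.35 to 0.26. It was -0.07 within run 1 and 0.07 within run 2. Slc40a1, ferroportin, the one known cellular iron exporter, read 4.52 and 4.32 in the knockout and 4.72, 4.52 and 4.46 in the wild type. Its highest value was that of wild type 1 and its lowest that of knockout 2. The difference was -0.14 ± 0.11 (SE; limma adjusted p = 0.919), -0.10 within run 1 and -0.14 within run 2. Without knockout 2 it was -0.04, where wild type 3 was the only array of run 2 left.

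The iron regulatory proteins likewise read lowest on the arrays of run 2. Aco1, a cytosolic aconitase that turns into an RNA-binding protein when it loses its iron-sulphur cluster, read 6.62 and 6.33 on the knockout arrays and 6.62, 6.81 and 6.53 on the wild-type arrays. Knockout 1 equalled wild type 1, and knockout 2 was lowest. The difference was -0.18 ± 0.14 (SE; limma adjusted p = 0.919), -0.09 within run 1 and -0.20 within run 2. Without knockout 2 it was -0.03, where wild type 3 was the only array of run 2 left. Ireb2, the second regulatory protein, which is degraded when iron is plentiful, read 7.34 and 7.15 in the knockout and 7.41, 7.34 and 7.24 in the wild type. Its difference was -0.09 ± 0.09 (SE; limma adjusted p = 0.919) with all arrays, -0.04 within run 1 and -0.09 within run 2. Without knockout 2 the Ireb2 difference was 0.0095, where wild type 3 was again the only array of run 2 left.

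Set against each other by run, a comparison chosen after seeing the data, 4 of the 9 iron genes (Fth1, Slc40a1, Aco1 and Ireb2) were lower on both arrays of run 2 than on every array of run 1, and 0 were higher on both. Over all genes 9.82% were lower and 8.57% higher in this way, and among genes with 5 different values 23.6% were lower. With genotype in the same model, run 2 minus run 1 was -0.19 ± 0.05 (SE) for Fth1, -0.18 ± 0.08 for Slc40a1, -0.23 ± 0.08 for Aco1 and -0.16 ± 0.04 for Ireb2. These 4 were picked by the same values, so the sizes are a description. None of the 4 passed limma's test of the run (adjusted p between 0.497 and 0.636), which called 0 of 22180 genes. Run 2 minus run 1 was 0.03 for Tfrc and for Steap3, 0.07 for Slc25a37 and -0.08 for Slc11a2, and Slc25a28 did not vary. Macrophages handle much of the body's iron and express ferritin and ferroportin, and 10 of the 16 measured macrophage markers were also lower on both arrays of run 2. The mean signal of these markers was 5.10 and 4.86 on the arrays of knockout 1 and knockout 2 and 5.24, 5.49 and 4.85 on those of wild type 1, 2 and 3. Cd68, a lysosomal protein of macrophages, read 7.32 and 7.27 in the knockout and 7.32, 7.60 and 7.27 in the wild type. The part of macrophages in the Fth1 and Slc40a1 values was not tested.

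Slc25a37 is prominent in red cell precursors, so signals of that lineage were read beside it, and globin probe sets were higher on the same arrays. Probe sets that list several globin genes are left out of the gene table, and those that list nothing else were read separately, a choice made after seeing the data. There are 5, of which 2 list Hba-a1 and Hba-a2 and 3 list Hbb-b1, Hbb-b2 and Hbb-bs, so none can be given to 1 gene and they are not independent of each other. All 5 read higher on both knockout arrays than on every wild-type array, where 2.63% of all genes and 5.37% of genes with 5 different values do.

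The brighter alpha globin probe set (17248276) read 10.67 and 10.86 on the knockout arrays and 10.32, 10.09 and 10.41 on the wild-type arrays. Its difference was 0.49 ± 0.13 (SE), or 1.40-fold, and was 0.47 within run 1 and 0.45 within run 2. The beta globin probe set 17481232 read 11.46 and 11.53 in the knockout and 11.20, 11.00 and 11.27 in the wild type, which differ by 0.34 ± 0.10 (SE). The remaining 3 differed by 0.66 ± 0.24 (17494221), 0.29 ± 0.12 (17494228) and 0.14 ± 0.09 (17248263). Within run 1 and run 2 the differences were 0.36 and 0.26 for 17481232 and 0.82 and 0.36 for 17494221. They were 0.47 and 0.04 for 17494228 and 0.22 and 0.02 for 17248263, so in run 2 these 2 separated by very little. None passed limma's test when they were added to the gene table (adjusted p = 0.919 for each), and 2 of the 5 had an unadjusted p under 0.05. Within the wild type the orders differed: wild type 2 was the lowest array on all 5 globin probe sets and the highest for Slc25a37.

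Other red cell markers showed no such separation. Of the 30 genes listed, 19 were measured, and 6 had a higher and 11 a lower mean in the knockout, with a median difference of -0.004. None passed limma's test and 0 were without overlap between the groups. The shares over all genes were 2.63% above and 2.80% below on both knockout arrays, so 0 of 19 is near those shares. Ties also limit what these markers can show. Rhd and Trim58 read the same on all 5 arrays, and Slc4a1, Sptb, Rhag, Kel, Car1 and Nfe2 had 2 different values each. Their mean signal was 3.71 and 3.78 on the knockout arrays and 3.70 to 3.77 on the wild-type arrays, and 7 of the 19 lay above the 40th percentile of all genes, at 3.86. Slc4a1, the anion exchanger of the red cell membrane, read 3.79 and 3.87 in the knockout and 3.79 on each wild-type array. The largest differences were those of Icam4, a red cell adhesion protein, at 0.30 ± 0.21 (SE), Gata1, the erythroid transcription factor, at 0.13 ± 0.09, and Klf1, a second such factor, at 0.12 ± 0.12. Icam4 and Klf1 were highest on knockout 2, at 4.69 and 4.47 against 4.15 and 4.17 on knockout 1. Wild type 3, the other array of run 2, was next for both, at 4.26 and 4.30. Gata1, with a mean of 3.17, lay under the 40th percentile. The probe set that lists Alas2 also lists another gene and was not used. The part of red cells in the Slc25a37 difference was not tested.

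**Figure D3:**
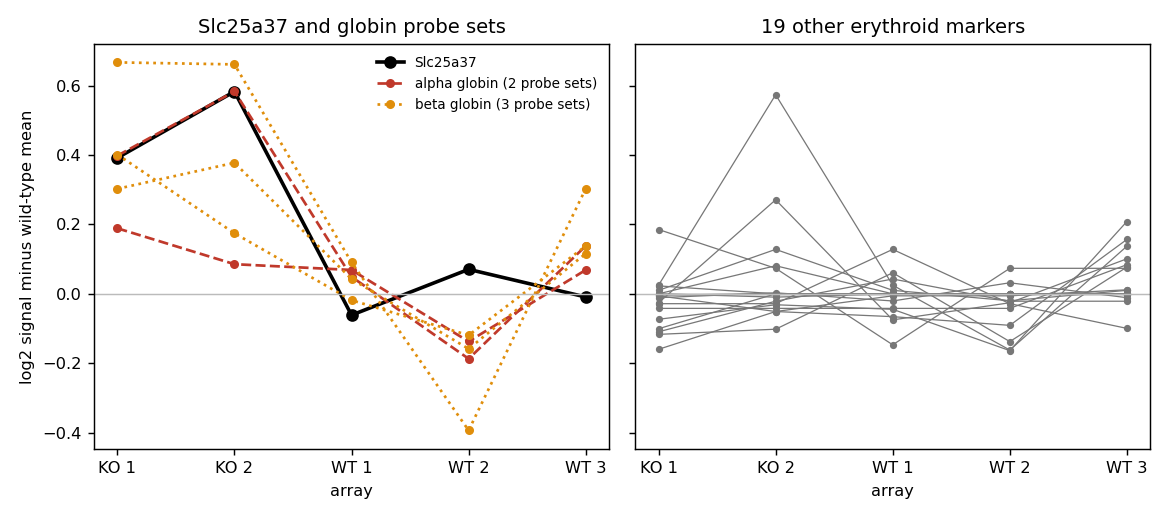
Log2 signal minus the wild-type mean on each array (horizontal axis: knockout arrays KO 1 and KO 2, wild-type arrays WT 1 to WT 3), on the left for Slc25a37 (black) and the 5 globin probe sets, on the right for the 19 measured red cell markers. Slc25a37 and all 5 globin probe sets lie higher on both knockout arrays than on any wild-type array, and none of the 19 markers does.

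No gene of the wider iron pathway, taken from lists of other genes, was called between the genotypes. Of 31 other genes of iron uptake, release, storage and systemic control, 30 were measured, 14 with a higher and 13 with a lower mean in the knockout, and limma called 0. The median difference was 0.00, and no gene was without overlap. Shares over all genes were 2.63% above and 2.80% below on both knockout arrays, so 0 of 30 is near them. Ltf, lactoferrin, an iron-binding protein of milk, read 8.32 and 7.60 on the knockout arrays and 8.59, 8.32 and 8.42 on the wild-type arrays, so the low value was that of knockout 2 alone (difference -0.48 ± 0.26, SE; limma adjusted p = 0.919). Exoc6, an exocyst subunit that takes part in transferrin cycling, had the same low array, at 5.82 against 6.55 in knockout 1 and 6.46 to 6.73 in the wild type. Steap4, a ferrireductase, read 7.89 and 7.44 in the knockout and 7.18, 7.77 and 6.92 in the wild type (0.37 ± 0.33, SE; limma adjusted p = 0.919). Hamp, the hormone hepcidin that removes ferroportin from the membrane, ranged from 3.09 to 4.23 with a difference of 0.03 ± 0.38. Ftl1, the light chain of ferritin, has no probe set of its own.

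Genes that use mitochondrial iron had list medians near 0. Of 26 genes of heme synthesis, transport and breakdown, 24 were measured, with 7 higher and 16 lower in the mean, a median of -0.01 and 0 called by limma. Blvra, biliverdin reductase, was the 1 gene of this list without overlap, at 5.98 and 5.85 in the knockout and 6.02, 6.05 and 6.11 in the wild type (-0.14 ± 0.05, SE; limma adjusted p = 0.919). Over all genes 2.80% lay below on both knockout arrays. Of 32 genes of iron-sulphur cluster assembly 26 were measured, with 14 higher and 11 lower in the mean, a median of 0.004 and 0 called. The largest differences were those of Glrx5, a mitochondrial glutaredoxin (-0.14 ± 0.10, SE), Ciao2a, a cytosolic assembly factor (-0.14 ± 0.08), and Cisd2, an iron-sulphur protein of the endoplasmic reticulum (0.13 ± 0.06).

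**Figure D4:**
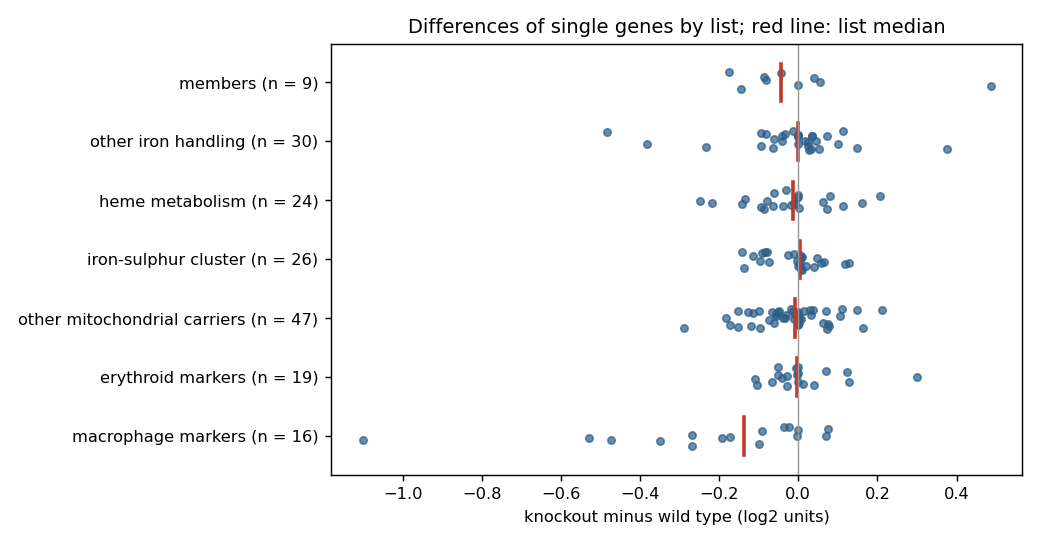
Difference between the genotypes (horizontal axis: knockout minus wild type, log2 units) for each measured gene, 1 point per gene, grouped by list, with the list median as a red line; vertical scatter within a list has no meaning. Slc25a37 at 0.49 is the rightmost point of the members, and the list medians of other iron handling, heme and iron-sulphur genes lie between -0.01 and 0.004.

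The genes whose values ran closest to those of Slc25a37 over the 5 arrays were ranked by the root mean square distance between values centred per gene, among the 11089 other genes brighter than the median gene. The nearest were Rpph1, the RNA component of RNase P (0.079 log2 units), Gpihbp1, which anchors lipoprotein lipase on capillaries (0.087), Olfr519, an olfactory receptor (0.098), Plxnd1, a semaphorin receptor (0.107), and Cul4a, a ubiquitin ligase scaffold (0.107). Gpihbp1 read 6.58 and 6.76 on the knockout arrays and 6.09, 6.46 and 6.25 on the wild-type arrays, the same order of arrays as Slc25a37. No other iron gene of the set was among them. The choice of Slc25a37 for its difference settles that, since the highest difference among the others was 0.05. With 5 arrays this is a description of likeness and no correlation was computed.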

How the data were processed

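The deposited table holds log2 signals of 41345 probe sets, normalised by the authors; the submitters' processing notes name RMA and limma, with no version. For the array model, library files and genome build nothing is given in the sources used here. No detection calls were used. The platform annotation gives 1 symbol for 23521 probe sets, several for 1814 and none for 16010. Probe sets with 1 symbol were kept, the one with the highest mean per gene, giving 22180 genes. Genotypes were compared with limma 3.58.1 in R 4.3.3 (lmFit, eBayes, two-sided, Benjamini-Hochberg over all genes, threshold 0.05), tested on simulated data. Array medians lay between 4.24 and 4.29; precision is limited by the number of arrays. All 9 measured iron genes lay above the 40th percentile of signal. Differences within runs, with the run as a block, under other normalisations, without dim genes, with averaged probe sets, an intensity trend, the replicate number as a block and 1 array left out were also computed. Named genes are the set, Mmp14, the 5 nearest to Slc25a37 and, per list discussed, genes without overlap or else the 3 largest differences, with a few fixed by name; Cd68, Krt8, Epcam and Krt14 were chosen after their values were seen. The members and lists were chosen with earlier results of these data known. No sequence is shown.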

Additional observations from a re-analysis of the deposited data

How the results depend on the processing

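The Slc25a37 difference was 0.39 in run 1 alone, 0.59 in run 2 alone and 0.39 to 0.58 with 1 array left out; its sign could not turn in these, since it was chosen for groups that do not overlap. The sign of Fth1 turned in run 2 alone (0.066) and without knockout 2 (0.014) or wild type 2 (0.0092), within a range of -0.13 to 0.014 with 1 array left out; that of Ireb2 turned without knockout 2 (0.0095), within -0.18 to 0.0095. The cause was not tested. Genes called by limma numbered 0 in all alternatives that kept 5 arrays, in run 1 alone and at an adjusted p under 0.10. They numbered 0 to 1757 with 1 array left out, 1757 without knockout 1 and 835 without knockout 2, and ties among wild-type values were present in 86.7% and 93.5% of these calls; such fits take the spread of the single knockout array from the wild type. Genes of the lists called were 0 to 25 of 270 (25 without knockout 1, or 9.26% against 7.92% of all genes, and 12 without knockout 2, or 4.44% against 3.76%). Of the 8 iron genes tested, 0 were called in the alternatives that give a test. With the replicate number as a block (replicate block), 0 genes were called and Slc25a37 differed by 0.48. Deviations from the group mean correlated at 0.245 for the arrays numbered 1 and at -0.044 for those numbered 2, across genes. With 2 knockout arrays the deviations of each are those of the other with the sign turned, so these values do not settle a pairing, and no label ties the numbers to a litter or day. Run 2 alone has 1 array per genotype and gives values with no test. Signals near the floor cannot be told from background.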

Other observations

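Besides members of the set, 7 genes whose transcripts are known or reported to carry an iron-responsive element were listed, and 4 were measured. The largest differences were those of Cdc14a, a cell cycle phosphatase, at -0.16 ± 0.15 (SE), Epas1, a hypoxia-inducible factor, at -0.07 ± 0.38, and Pfn2, a profilin, at -0.02 ± 0.02, and 0 of the 4 passed limma's test. Epas1 read 6.82 and 7.67 on the knockout arrays and 7.12, 7.75 and 7.07 on the wild-type arrays. Knockout 1 was the lowest array and wild type 2 the highest.

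Marker lists of other cells and states had 0 genes called by limma. Median differences were -0.37 for 12 milk protein genes, -0.17 for 18 proliferation genes, -0.16 for 11 lymphocyte genes and -0.14 for 16 macrophage genes. They were -0.02 for 12 neutrophil genes, 0.03 for 8 adipocyte genes and 0.12 for 10 fibroblast genes. For 11 endothelial, 15 luminal and 9 basal genes they were 0.01, -0.04 and 0.13. Some lists went opposite ways on the 2 knockout arrays. The list mean minus that of the wild type was 0.14 on knockout 1 and -0.41 on knockout 2 for proliferation genes. In the same order it was -0.39 and 0.29 for endothelial and 0.11 and -0.21 for luminal genes. For adipocyte genes knockout 1 was level with the wild type, at -0.001, and knockout 2 was at 0.16. The other lists named here had 1 sign on both knockout arrays.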
